A study of Homo sapiens with 76 samples.

Results

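Among 76 single HEK293 cells, the 19 cells with the highest share of mitochondrial messenger RNA were compared with the 19 cells with the lowest share. HEK293 is an established human embryonic kidney line. The cells were untreated, came from 1 run on a Fluidigm C1 chip, and were profiled by sequencing of the 5′ ends of polyadenylated transcripts with unique molecular identifiers (UMIs), tags that allow copies of 1 cDNA molecule to be counted once. The labels name 1 line, no treatment and no replicate cultures, so the 76 cells were handled as 1 sample. Cells were chosen by a measured value: the summed UMIs of the 13 mRNAs of the mitochondrial genome, as a percentage of all gene UMIs of the cell. The 19 highest cells are called MT-mRNA-high and the 19 lowest MT-mRNA-low, and the 38 cells between them form 2 further rank groups of 19. Both groups are the same untreated line, and the labels set no cell apart from another. No p-value was made from cells, and each SD given here describes the spread over cells.

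The human mitochondrial genome encodes messenger RNAs for core subunits of respiratory complexes I, III and IV and of ATP synthase, together with the ribosomal and transfer RNAs that translate them. Nearly all of it is copied as long polycistronic transcripts that are cut at the transfer RNAs. All other mitochondrial proteins are encoded in the nucleus, made in the cytosol and imported, so the respiratory chain draws on both genomes. Cultured lines such as HEK293 also make ATP by glycolysis in the cytosol.

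The most abundant of the 13 mRNAs was MT-ATP8, which encodes a small subunit of ATP synthase and lies ahead of MT-ATP6 on a shared transcript. Its coding sequence of 207 bases (chrM:8366-8572, plus strand, GRCh38) is shown because its last 46 bases, in capitals, also belong to MT-ATP6, so that a read there fits both genes.
MT-ATP8: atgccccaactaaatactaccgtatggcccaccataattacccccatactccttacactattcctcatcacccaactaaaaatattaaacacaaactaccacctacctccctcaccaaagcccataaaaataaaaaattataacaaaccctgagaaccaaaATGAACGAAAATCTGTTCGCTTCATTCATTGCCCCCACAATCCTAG
A nuclear copy of MT-ATP6, MTATP6P1, matches it at 98.5% of 681 bases and differs at 10. The first 120 bases of both (MT-ATP6 at chrM:8527-8646 and MTATP6P1 at chr1:633696-633815, plus strand, GRCh38) show how little separates a mitochondrial read from a nuclear one. The 1 base that differs is in capitals.
MT-ATP6: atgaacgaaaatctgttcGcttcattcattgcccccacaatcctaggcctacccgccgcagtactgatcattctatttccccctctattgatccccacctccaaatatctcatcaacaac
MTATP6P1: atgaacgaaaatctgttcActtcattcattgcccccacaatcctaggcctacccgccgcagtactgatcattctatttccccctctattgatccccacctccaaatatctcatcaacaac

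MT-mRNA-high cells held 4.43% to 8.68% mitochondrial mRNA, with a median of 5.41% and a mean of 5.65% ± 1.11 (SD, 19 cells). MT-mRNA-low cells held 1.24% to 2.32%, with a median of 1.87% and a mean of 1.87% ± 0.317 (SD, 19 cells). From the lowest to the highest of the 4 rank groups the means were 1.87%, 2.87%, 3.93% and 5.65%. The ranking fixes this order, so it is a description and not a result. The shares ran on without a break at either edge: the cell ranked 19 held 4.43% and the cell ranked 20 held 4.42%, while the cell ranked 57 held 2.34% and the cell ranked 58 held 2.32%. The tie rule was not needed, since 0 cells were tied at the edges.

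**Figure D1:**
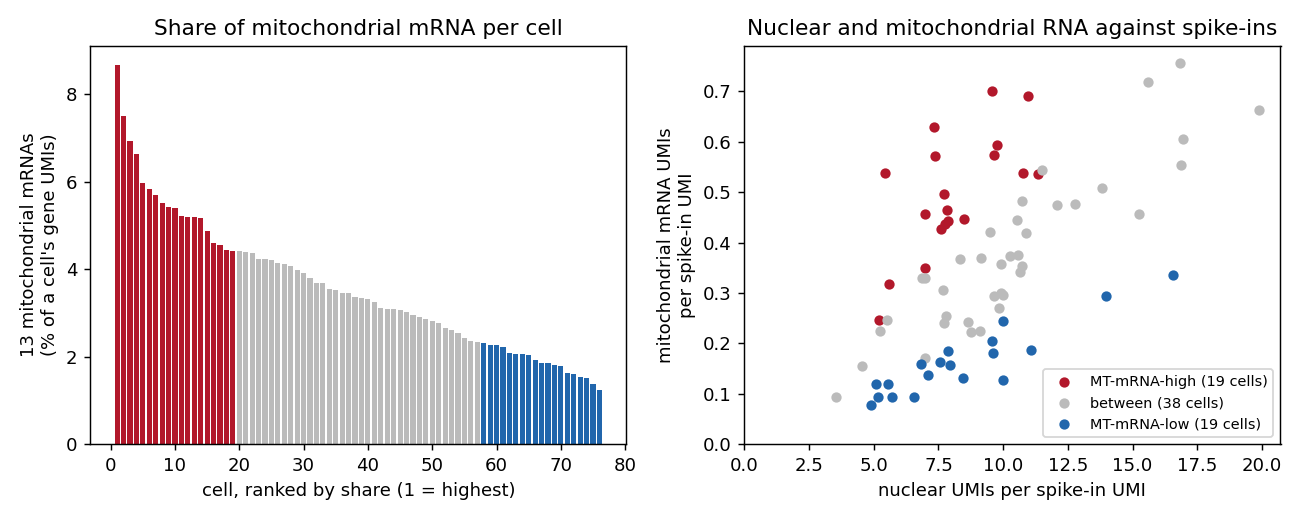
Left, share of the 13 mitochondrial mRNAs in each of the 76 cells, in percent of the cell's gene UMIs, ranked; red bars are MT-mRNA-high cells, grey bars the 38 cells between, blue bars MT-mRNA-low cells. Right, mitochondrial mRNA UMIs against nuclear UMIs, both per spike-in UMI, 1 point per cell; median nuclear UMIs per spike-in UMI were 7.75 in MT-mRNA-high cells and 7.89 in MT-mRNA-low cells.

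Depth had similar medians in the 2 groups. MT-mRNA-high cells gave 8272 to 32738 gene UMIs (median 18340) and MT-mRNA-low cells 9668 to 41539 (median 16598), while the 2 rank groups between had medians of 23370 and 24291. The spike-in RNAs, which every chamber received alike, gave medians of 2223 UMIs in MT-mRNA-high cells and 2170 in MT-mRNA-low cells. Per spike-in UMI, MT-mRNA-high cells held 0.246 to 0.701 mitochondrial mRNA UMIs (median 0.496) and MT-mRNA-low cells 0.0769 to 0.335 (median 0.156). Nuclear UMIs per spike-in UMI had medians of 7.75 in MT-mRNA-high cells and 7.89 in MT-mRNA-low cells, close to each other. The mitochondrial values per spike-in UMI reuse the count that ranked the cells and are a description. Thinned to 10396 nuclear UMIs, MT-mRNA-high cells showed a median of 2771 nuclear genes (2441 to 3371, 18 cells) and MT-mRNA-low cells 2690 (2463 to 3244, 17 cells). Unthinned medians were 3577 genes in MT-mRNA-high cells and 3448 in MT-mRNA-low cells.

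The 13 mRNAs are the values that chose the cells, and their levels follow as a description. The ratio of mean share of gene UMIs ranged from 2.45 (MT-ND2, complex I) to 3.93 (MT-CO3, complex IV). MT-ATP8 had 67 to 307 UMIs (median 164) in MT-mRNA-high cells and 26 to 139 (median 56) in MT-mRNA-low cells. MT-CO2, which encodes a subunit of cytochrome c oxidase (chrM:7586-8269, plus strand, GRCh38), had 46 to 272 UMIs (median 148) in MT-mRNA-high cells and 10 to 95 (median 39) in MT-mRNA-low cells. MT-CYB, the cytochrome b of complex III (chrM:14747-15887, plus strand), had 57 to 218 UMIs (median 139) in MT-mRNA-high cells and 15 to 126 (median 31) in MT-mRNA-low cells. The UMI ranges of all 3 overlapped between the groups, but their ranges in share of gene UMIs did not. The lowest MT-mRNA-high cell held 0.600% MT-ATP8, 0.542% MT-CO2 and 0.532% MT-CYB. The highest MT-mRNA-low cell for each held 0.511%, 0.392% and 0.344% in the same order. All 3 entered the ranking, so no comparison is drawn from them. MT-ND6, the only mRNA read from the other strand (chrM:14149-14673, minus strand), had 1 to 19 UMIs (median 9) in MT-mRNA-high cells and 0 to 12 (median 2) in MT-mRNA-low cells.

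The make-up of the mitochondrial mRNA pool was similar but not the same. MT-CO3, a subunit of cytochrome c oxidase, made up 8.43% ± 1.08 of the 13 mRNAs in MT-mRNA-high cells and 6.46% ± 1.53 in MT-mRNA-low cells (SD, 19 cells each). MT-ND1 of complex I made up 6.33% ± 1.15 in MT-mRNA-high cells and 4.98% ± 2.05 in MT-mRNA-low cells. In the other direction, MT-ATP8 made up 15.8% ± 1.60 in MT-mRNA-high cells and 18.2% ± 3.02 in MT-mRNA-low cells, and MT-ND2 5.39% ± 1.10 in MT-mRNA-high cells and 6.65% ± 1.95 in MT-mRNA-low cells. MT-CO2 held an equal part, at 12.8% ± 1.24 in MT-mRNA-high cells and 12.7% ± 3.82 in MT-mRNA-low cells. Ranges overlapped for all 13, and each MT-mRNA-low value rests on fewer UMIs (a median of 310 mitochondrial mRNA UMIs per cell, against 1208 in MT-mRNA-high cells). The ratio within overlapping gene pairs was near equal: MT-ATP8 to MT-ATP6 was 2.4 ± 0.462 in MT-mRNA-high cells and 2.53 ± 0.711 in MT-mRNA-low cells, and MT-ND4L to MT-ND4 was 0.615 ± 0.122 in MT-mRNA-high cells and 0.683 ± 0.265 in MT-mRNA-low cells.

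**Figure D2:**
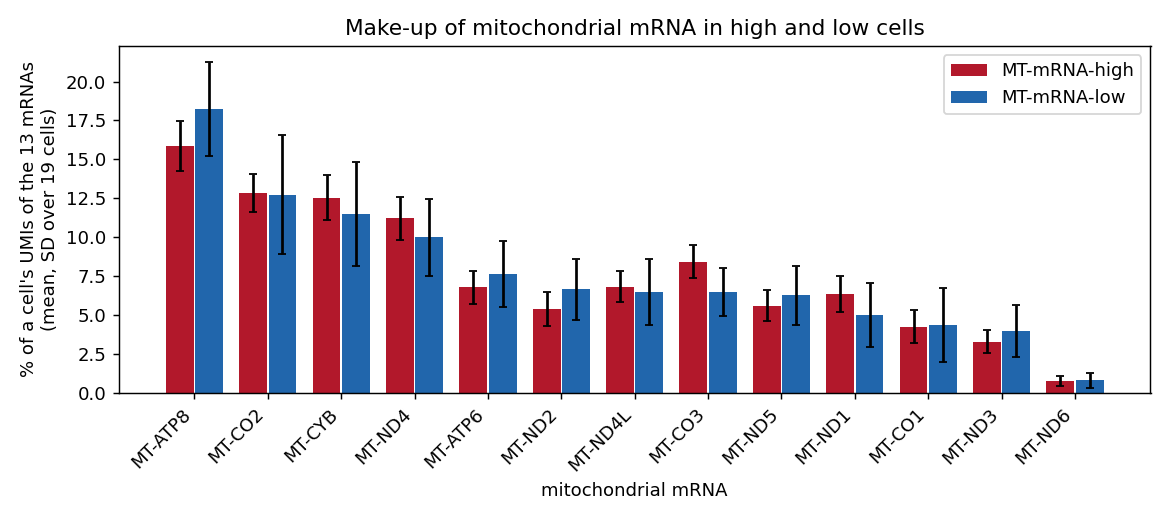
Make-up of mitochondrial mRNA: each mRNA as a percentage of a cell's UMIs of all 13 (vertical axis), in MT-mRNA-high (red) and MT-mRNA-low cells (blue); bars are means and lines the SD over 19 cells each. MT-CO3 stood at 8.43% in MT-mRNA-high cells and 6.46% in MT-mRNA-low cells, MT-ATP8 at 15.8% in MT-mRNA-high cells and 18.2% in MT-mRNA-low cells.

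Mitochondrial RNAs that did not enter the ranking were also more abundant in MT-mRNA-high cells, to unequal degrees. The ribosomal RNAs MT-RNR1 and MT-RNR2 together took 2.54% ± 0.712 of gene UMIs in MT-mRNA-high cells and 1.40% ± 0.707 in MT-mRNA-low cells, a ratio of 1.81. MT-RNR1, the small ribosomal subunit RNA, differed by 2.42-fold and MT-RNR2, that of the large subunit, by 1.49-fold. MT-RNR2 ranged from 0.710% to 2.39% (median 1.23%) in MT-mRNA-high cells and from 0.410% to 2.36% (median 0.879%) in MT-mRNA-low cells, so the ranges overlapped almost in full. A cell held 2.36 ± 0.591 mRNA UMIs per ribosomal RNA UMI in MT-mRNA-high cells and 1.62 ± 0.769 in MT-mRNA-low cells. Over the 4 rank groups, from lowest to highest, ribosomal RNA averaged 1.40%, 2.30%, 2.37% and 2.54%, so most of its difference lay between the lowest rank group and the next. Spearman's rho of ribosomal RNA with mitochondrial mRNA was 0.497 over the 76 cells, which share 1 chip and 1 denominator.

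The 22 transfer RNA rows took 0.638% ± 0.370 of gene UMIs in MT-mRNA-high cells and 0.170% ± 0.209 in MT-mRNA-low cells, a ratio of 3.75. They ranged from 0.230% to 1.62% (median 0.548%) in MT-mRNA-high cells and from 0.0142% to 0.970% (median 0.104%) in MT-mRNA-low cells. In MT-mRNA-high cells most of the share came from MT-TP, the proline transfer RNA (chrM:15956-16023, minus strand), at a mean of 0.340%. In MT-mRNA-low cells MT-TP averaged 0.0580%, a smaller part of the 0.170%. MT-TP had 13 to 185 UMIs (median 59) in MT-mRNA-high cells and 0 to 166 (median 3) in MT-mRNA-low cells, 5.87-fold in mean share. In share of gene UMIs, MT-TP ranged from 0.130% to 0.824% in MT-mRNA-high cells and from 0 to 0.400% in MT-mRNA-low cells, so the ranges overlapped. A single MT-mRNA-low cell held 166 of that group's 334 UMIs. MT-TS2, one of the serine transfer RNAs, had 1 to 98 UMIs (median 18) in MT-mRNA-high cells and 0 to 107 (median 5) in MT-mRNA-low cells. Of the MT-mRNA-low group's 212 MT-TS2 UMIs, 1 cell held 107. The library takes polyadenylated RNA from its 5′ end, and whether counting used strand is not given in the sources used here, so a UMI on a transfer RNA row may belong to a longer transcript or to the other strand.

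Rows named for nuclear copies of mitochondrial genes moved with the ranking. The 33 such rows took 0.149% ± 0.0524 of nuclear UMIs in MT-mRNA-high cells and 0.0563% ± 0.0145 in MT-mRNA-low cells, a ratio of 2.64. MTATP6P1 had 5 to 34 UMIs (median 17) in MT-mRNA-high cells and 1 to 12 (median 6) in MT-mRNA-low cells, 2.88-fold in share of nuclear UMIs. MT-ATP6 itself stood at 2.73-fold in share of all gene UMIs, so the 2 values have different totals. MTND2P28, a copy of MT-ND2 with 98.4% identity over 1042 aligned bases (chr1:629640-630683, plus strand, GRCh38), had 1 to 12 UMIs (median 5) in MT-mRNA-high cells and 0 to 7 (median 2) in MT-mRNA-low cells, 2.09-fold. How reads that fit both a copy and the mitochondrial gene were placed is not given in the sources used here, so these rows are uncertain and stand outside the nuclear genes below.

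For nuclear genes, a level is the percentage of a cell's nuclear UMIs, and a fold is the mean level over MT-mRNA-high cells divided by that over MT-mRNA-low cells. With the sum of mitochondrial rows removed from the total, a higher mitochondrial count does not by itself lower a nuclear share. Of 1076 nuclear genes with a mean of at least 3 UMIs per cell over the 76 cells, 108 were past 1.5-fold higher in MT-mRNA-high cells (10.0%) and 146 past 1.5-fold lower (13.6%). Past 2-fold there were 32 genes in each direction, and the median log2 ratio was -0.02 with an SD of 0.52 over genes. The per-cell ranges of 1 gene, the clone-named row CTB-36O1.7, did not overlap between the groups. The ranking was also visible without choosing genes by it. The first principal component of nuclear expression held 6.89% of the variance and correlated with the mitochondrial mRNA share (Spearman's rho 0.776 over 76 cells of 1 chip). Its correlation with nuclear UMIs was 0.248. All 19 MT-mRNA-high cells and 0 of 19 MT-mRNA-low cells lay above its median.

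Nuclear genes for the respiratory chain differed little from the background. The member counts that follow stand beside 10.0% of all genes past 1.5-fold higher and 13.6% lower. The 36 complex I subunit genes in the table took 1.5% ± 0.206 of nuclear UMIs in MT-mRNA-high cells and 1.39% ± 0.178 in MT-mRNA-low cells, a ratio of 1.08. Of its 25 members above 3 UMIs per cell, 1 was past 1.5-fold higher (NDUFS3, 1.51-fold) and 2 past 1.5-fold lower (NDUFB10, ratio 0.508, and NDUFS6, ratio 0.609). Its most abundant members were NDUFA1, at 0.196% in MT-mRNA-high cells and 0.154% in MT-mRNA-low cells, and NDUFA4, at 0.134% in MT-mRNA-high cells and 0.0979% in MT-mRNA-low cells. Subunit genes of complexes II to IV with cytochrome c took 1.92% ± 0.221 in MT-mRNA-high cells and 1.77% ± 0.240 in MT-mRNA-low cells (ratio 1.08). Of 21 measured members, COX6A1 (1.60-fold) and CYCS (1.51-fold), the cytochrome c gene, were past 1.5-fold higher, and COX4I1 (ratio 0.637) past 1.5-fold lower. ATP synthase genes took 1.74% ± 0.205 in MT-mRNA-high cells and 1.59% ± 0.197 in MT-mRNA-low cells (ratio 1.10), with 0 of 18 measured members past 1.5-fold in either direction. ATP5G2, which encodes the ring subunit c, came nearest at 1.49-fold (0.200% in MT-mRNA-high cells, 0.134% in MT-mRNA-low cells). The median log2 ratio was 0.17 for complex I, 0.15 for complexes II to IV and 0.12 for ATP synthase, against -0.02 over all 1076 genes. The ranges over cells overlapped for all 3 lists. The direction was not kept under every other ranking. With cells ranked by mitochondrial ribosomal RNA the ratios were 0.916 for complex I, 0.970 for complexes II to IV and 0.932 for ATP synthase. With mitochondrial mRNA over spike-in UMIs they were 0.956, 1.02 and 1.02 in the same order. Ranked separately among deep and shallow cells they were 1.07, 1.11 and 1.10. After subtraction of a fit on GC content and transcript length (described below), the median log2 ratio was 0.15 for complex I and 0.00 for complexes II to IV.

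Genes that express and maintain the mitochondrial genome lay near the background. The 74 mitochondrial ribosomal protein genes took 1.37% ± 0.133 in MT-mRNA-high cells and 1.42% ± 0.158 in MT-mRNA-low cells (ratio 0.971). Of 40 measured members, MRPS36 (1.91-fold), MRPL15 (1.89-fold) and MRPL47 (1.59-fold) were past 1.5-fold higher, and MRPS26, MRPL12, MRPL22 and MRPL16 past 1.5-fold lower (ratios 0.533 to 0.656), 3 and 4 of 40 beside 10.0% and 13.6% over all genes. Genes of mitochondrial transcription, replication and RNA processing had a ratio of 1.09. Of their 5 measured members TRMT10C, a subunit of the enzyme that cuts transfer RNA 5′ ends, was past 1.5-fold higher (1.68-fold). SSBP1, the single-stranded DNA-binding protein, stood at 0.0988% in MT-mRNA-high cells and 0.0997% in MT-mRNA-low cells. TFAM, the transcription factor that packages mitochondrial DNA, had 0 to 7 UMIs (median 2) in MT-mRNA-high cells and 0 to 13 (median 3) in MT-mRNA-low cells, a ratio of 0.726. POLRMT, the mitochondrial RNA polymerase, was below the floor, with 13 UMIs in all MT-mRNA-high cells together and 4 in all MT-mRNA-low cells. TUFM, the mitochondrial elongation factor Tu, was past 1.5-fold lower (ratio 0.601).

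Import genes took 0.563% ± 0.0886 in MT-mRNA-high cells and 0.583% ± 0.0768 in MT-mRNA-low cells (ratio 0.966). Carriers and channels of the mitochondrial membranes were lower in MT-mRNA-high cells, at 0.463% ± 0.0977 against 0.572% ± 0.0850 in MT-mRNA-low cells (ratio 0.809). Of 10 measured members 9 had a ratio below 1 and 2 were past 1.5-fold lower, the ADP/ATP carrier SLC25A6 (ratio 0.477) and the citrate carrier SLC25A1 (ratio 0.626), beside 13.6% lower over all genes. SLC25A6 had 1 to 19 UMIs (median 7) in MT-mRNA-high cells and 2 to 28 (median 15) in MT-mRNA-low cells, and 19 of 19 MT-mRNA-high cells lay below the MT-mRNA-low median share. SLC25A5, the more abundant ADP/ATP carrier, stood at 0.129% in MT-mRNA-high cells and 0.172% in MT-mRNA-low cells. The list of mitochondrial chaperones and proteases had a ratio of 0.934. Of its 6 measured members only the HSP90 family member TRAP1 was past 1.5-fold lower (ratio 0.460), while HSPD1, the HSP60 chaperonin, had a ratio of 0.846. The tricarboxylic acid cycle list had a ratio of 0.909. Of its 5 measured members only PDHB, a pyruvate dehydrogenase subunit, was past 1.5-fold higher (1.73-fold), beside 10.0% over all genes. MDH2, malate dehydrogenase, had 0.0621% in MT-mRNA-high cells and 0.0600% in MT-mRNA-low cells. The redox list had a ratio of 1.10, with 1 of 11 measured members past 1.5-fold higher. This gene, PRDX3, the mitochondrial peroxiredoxin, had 3 to 33 UMIs (median 13) in MT-mRNA-high cells and 1 to 25 (median 7) in MT-mRNA-low cells, 2.11-fold in mean share. It was above the MT-mRNA-low median share in 18 of 19 MT-mRNA-high cells, and the ranges overlapped.

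Glycolytic genes were lower in MT-mRNA-high cells, the lowest ratio among the lists of glycolysis, tricarboxylic acid cycle, cholesterol synthesis and redox genes. The 17 genes took 1.05% ± 0.171 of nuclear UMIs in MT-mRNA-high cells (0.686% to 1.35%, median 1.08%) and 1.48% ± 0.198 in MT-mRNA-low cells (1.07% to 1.75%, median 1.51%), a ratio of 0.708. No MT-mRNA-high cell reached the MT-mRNA-low median (0 of 19), and 9 of 19 lay below the lowest MT-mRNA-low cell. The pooled sums were 3697 UMIs in MT-mRNA-high cells (exact Poisson 95% interval 3579 to 3818) and 5416 in MT-mRNA-low cells (5273 to 5562). Over the 4 rank groups, from lowest to highest, the mean was 1.48%, 1.28%, 1.15% and 1.05%. Of 10 measured members 9 had a ratio below 1, 4 were past 1.5-fold lower and 0 past 1.5-fold higher, against 13.6% lower and 10.0% higher among all genes measured. The list's median log2 ratio was -0.57, against -0.02 for all genes. Among all 36 lists, ratios were lower still for nuclear-retained RNAs (0.519) and for epithelial and neuronal genes of HEK293 (0.648). The p53 target list also had a lower ratio (0.628), from 34 UMIs in MT-mRNA-high cells and 58 in MT-mRNA-low cells.

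The steps of the pathway differed in size. GPI, the 1 measured member with a ratio above 1, stood at 1.03, with 59 UMIs in MT-mRNA-high cells and 58 in MT-mRNA-low cells. PGAM1, phosphoglycerate mutase, had 0 to 7 UMIs (median 2) in MT-mRNA-high cells and 0 to 11 (median 4) in MT-mRNA-low cells, a ratio of 0.425. PKM, pyruvate kinase, had 0 to 11 UMIs (median 5) in MT-mRNA-high cells and 2 to 30 (median 11) in MT-mRNA-low cells, a ratio of 0.469. Both low genes lay below the MT-mRNA-low median share in most MT-mRNA-high cells, 17 of 19 for PGAM1 and 18 of 19 for PKM. ALDOA, aldolase, had 4 to 31 UMIs (median 17) in MT-mRNA-high cells and 9 to 62 (median 30) in MT-mRNA-low cells (ratio 0.614), and ENO1, enolase, 8 to 47 (median 24) in MT-mRNA-high cells and 16 to 113 (median 40) in MT-mRNA-low cells (ratio 0.618). All 19 MT-mRNA-high cells were below the MT-mRNA-low median share for ALDOA and 18 of 19 for ENO1. GAPDH, which has many near-identical pseudogenes and is uncertain for that reason, had 33 to 106 UMIs (median 61) in MT-mRNA-high cells and 43 to 200 (median 76) in MT-mRNA-low cells, a ratio of 0.730. TPI1, triose phosphate isomerase, had a ratio of 0.743 and LDHA, a lactate dehydrogenase subunit, 0.668, both short of 1.5-fold. LDHB, the other main lactate dehydrogenase subunit, had 0.182% in MT-mRNA-high cells and 0.204% in MT-mRNA-low cells. The hypoxia list, with the glycolytic genes LDHA and PGK1 as its 2 measured members, had a ratio of 0.735, which was 1.06 with cells ranked by mitochondrial ribosomal RNA and 0.933 with the ranking over spike-in UMIs.

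**Figure D3:**
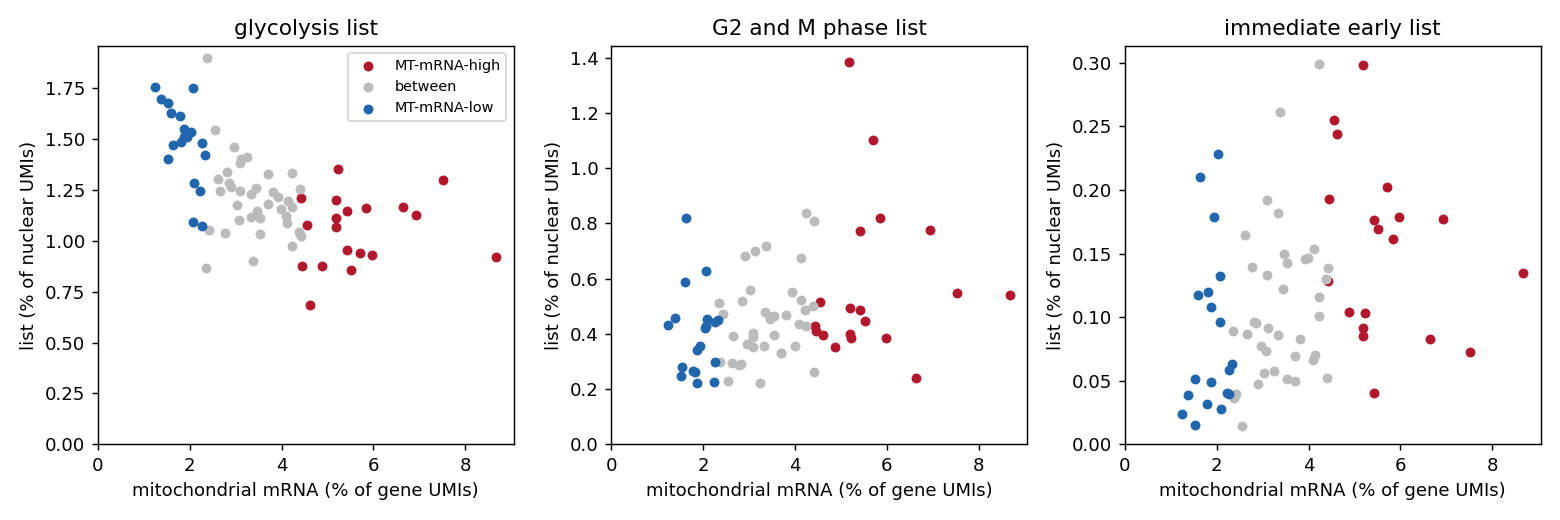
Share of nuclear UMIs of 3 gene lists (vertical axes, percent) against the share of mitochondrial mRNA (horizontal axes, percent of gene UMIs), 1 point per cell, with MT-mRNA-high cells red, MT-mRNA-low cells blue and the 38 cells between grey. Glycolysis averaged 1.05% in MT-mRNA-high cells and 1.48% in MT-mRNA-low cells; for the G2 and M phase list and the immediate early list the clouds overlap widely.

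Genes of G2 and M phase, the part of the cell cycle that prepares and carries out division, were higher on average in MT-mRNA-high cells. The 35 genes took 0.573% ± 0.284 of nuclear UMIs in MT-mRNA-high cells (0.241% to 1.38%, median 0.488%) and 0.401% ± 0.154 in MT-mRNA-low cells (0.223% to 0.818%, median 0.422%), a ratio of 1.43. The groups overlapped widely: 12 of 19 MT-mRNA-high cells were above the MT-mRNA-low median and 3 above the highest MT-mRNA-low cell. Of 14 measured members 7 were past 1.5-fold higher and 0 lower, beside 10.0% and 13.6% over all genes, and the median log2 ratio was 0.55. With the 19 cells highest in these genes left out before ranking, a choice made after seeing the data, the ratio was 1.18 for the list and 1.13 for CCNB1. With cells ranked by mitochondrial ribosomal RNA it was 1.02.

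CKS2, which binds the cyclin-dependent kinases, had 0 to 25 UMIs (median 11) in MT-mRNA-high cells and 0 to 16 (median 3) in MT-mRNA-low cells, 2.80-fold. CCNB1, cyclin B1, had 0 to 18 UMIs (median 2) in MT-mRNA-high cells and 0 to 8 (median 1) in MT-mRNA-low cells, 2.76-fold. CKS2 was above the MT-mRNA-low median share in 17 of 19 MT-mRNA-high cells and CCNB1 in 11 of 19, so the CCNB1 ratio rested on fewer cells. The others were UBE2C (2.12-fold), the ubiquitin-conjugating enzyme of the anaphase-promoting complex, BUB3 (1.91-fold), a spindle checkpoint protein, CDK1 (1.83-fold), the mitotic kinase, TOP2A (1.71-fold), DNA topoisomerase II alpha, and KPNA2 (1.55-fold), an importin. TUBB4B, a tubulin with near-identical relatives, had 0.0315% in MT-mRNA-high cells and 0.0409% in MT-mRNA-low cells. The 30 S phase genes took 0.444% ± 0.160 in MT-mRNA-high cells and 0.475% ± 0.145 in MT-mRNA-low cells. Of 13 measured members 1 was past 1.5-fold higher (HELLS) and 2 lower (TK1 and TYMS), beside 10.0% and 13.6% over all genes. The S phase list ratio of 0.933 was 1.12 with the ribosomal RNA ranking and 1.11 with the spike-in ranking. Replication-dependent histones took 0.809% ± 0.686 in MT-mRNA-high cells and 0.812% ± 0.664 in MT-mRNA-low cells.

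Many promoters of G2 and M phase genes are known to carry CCAAT boxes, bound by the factor NF-Y. The 250 bases before the RefSeq start of CCNB1 (chr5:69166900-69167149, plus strand, GRCh38.p14) and of CKS2 (chr9:89310945-89311194, plus strand, GRCh38.p14) are shown for the 2 genes of the list with the widest ratios. Capitals mark CCAAT, or ATTGG for the other strand, found 2 times for CCNB1 and 3 times for CKS2.
CCNB1: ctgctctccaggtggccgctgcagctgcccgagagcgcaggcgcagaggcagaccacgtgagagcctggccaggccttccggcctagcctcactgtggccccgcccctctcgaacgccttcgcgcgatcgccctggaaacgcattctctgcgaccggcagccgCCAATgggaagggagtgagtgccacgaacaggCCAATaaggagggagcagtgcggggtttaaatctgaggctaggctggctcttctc
CKS2: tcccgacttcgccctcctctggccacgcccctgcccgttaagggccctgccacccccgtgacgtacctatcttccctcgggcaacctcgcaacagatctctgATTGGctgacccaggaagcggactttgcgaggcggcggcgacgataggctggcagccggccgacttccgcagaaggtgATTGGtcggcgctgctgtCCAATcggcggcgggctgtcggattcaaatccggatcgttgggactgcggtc
The motif occurred in 25 of the 30 list genes with a promoter in the RefSeq table and in 33% of all 27305 promoters, searched on both strands. This describes the sequences alone and was not set against the ratios.

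Immediate early genes, which respond within minutes to growth factors and stress, were higher in MT-mRNA-high cells. The 18 genes took 0.153% ± 0.0683 in MT-mRNA-high cells and 0.0858% ± 0.0644 in MT-mRNA-low cells, a ratio of 1.78, and 18 of 19 MT-mRNA-high cells were above the MT-mRNA-low median. The pooled ratio, in which deep cells weigh more, was 1.41. Both of the list's measured members were past 1.5-fold higher, beside 10.0% of all genes. FOS, a subunit of the AP-1 transcription factor, had 0 to 23 UMIs (median 4) in MT-mRNA-high cells and 0 to 17 (median 1) in MT-mRNA-low cells, 3.49-fold in mean share. MYC, a transcription factor that is also listed among regulators of mitochondrial biogenesis, had 1 to 19 UMIs (median 6) in MT-mRNA-high cells and 0 to 28 (median 1) in MT-mRNA-low cells, 2.4-fold, and 17 of 19 MT-mRNA-high cells lay above the MT-mRNA-low median share. The other 16 genes gave 284 UMIs in MT-mRNA-high cells and 266 in MT-mRNA-low cells, a ratio of 1.32 in mean share. Outside MYC, the 9 other biogenesis regulators in the table gave 84 UMIs in MT-mRNA-high cells and 70 in MT-mRNA-low cells, too few to describe one by one. Their ratio of mean share was 1.34.

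**Figure D4:**
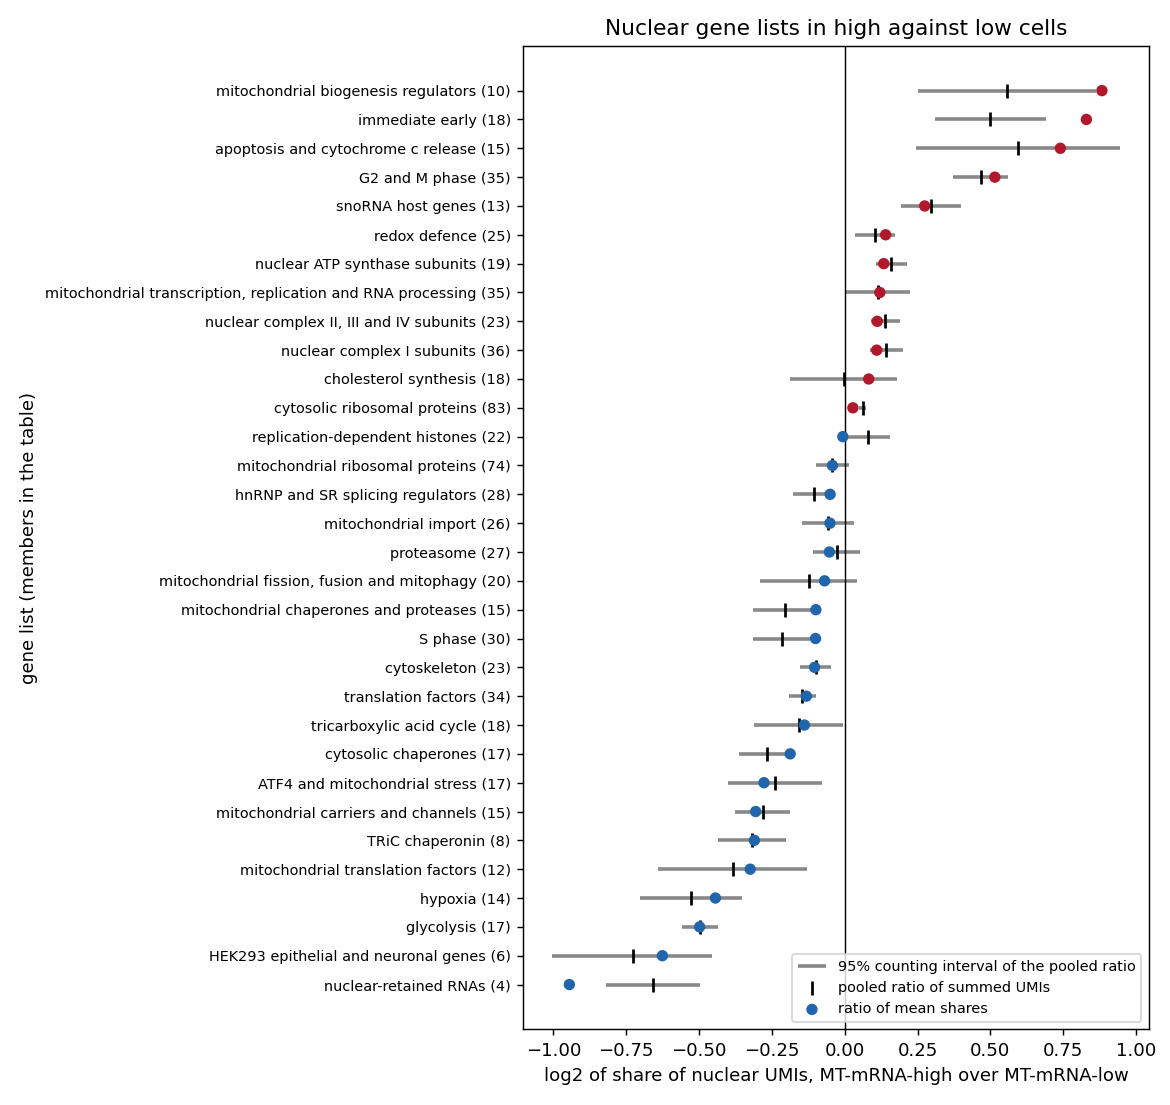
Log2 ratio of the share of nuclear UMIs, MT-mRNA-high over MT-mRNA-low cells (horizontal axis), for the 32 lists with at least 100 UMIs in the ranked cells; dots are ratios of mean shares, ticks pooled ratios and lines their 95% counting intervals. Glycolysis lies at a ratio of 0.708 and G2 and M phase at 1.43.

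The 12 genes with the highest and the 12 with the lowest ratios, with medians moving the same way, came from several classes. Their ratios depended on the ranking. With cells ranked by mitochondrial ribosomal RNA, CTB-36O1.7 stood at 1.72, SELK at 1.12, RSL24D1 at 1.05, PEBP1 at 0.993, FKBP2 at 0.966 and CCDC124 at 0.927, and 20 of the 24 ratios moved by over 1.5 times. CTB-36O1.7, a clone-based name that carries no function in the sources used here, had 14 to 63 UMIs (median 34) in MT-mRNA-high cells and 1 to 33 (median 5) in MT-mRNA-low cells. Its share was 0.119% to 0.256% in MT-mRNA-high cells and 0.00807% to 0.0929% in MT-mRNA-low cells, 5.17-fold in the mean. Among the 1076 genes counted as nuclear it was the 1 whose shares did not overlap. Its summed UMIs were 678 in MT-mRNA-high cells (exact Poisson 95% interval 628 to 731) and 155 in MT-mRNA-low cells (132 to 181). Such intervals cover counting error only. Spearman's rho with the mitochondrial mRNA share over the 76 cells was 0.870 for CTB-36O1.7 and 0.705 for the nuclear copy MTATP6P1. Nuclear copies of mitochondrial genes were set apart by symbol alone, which a clone-based name escapes. Whether CTB-36O1.7 holds mitochondrial reads was not tested, so its place among nuclear genes is uncertain.

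A pair of transcriptional regulators of differentiation followed. HES1, a repressor downstream of Notch, had 0 to 19 UMIs (median 4) in MT-mRNA-high cells and 0 to 25 (median 1) in MT-mRNA-low cells, 4.06-fold in mean share. ID2, which blocks basic helix-loop-helix factors, had 2 to 69 UMIs (median 9) in MT-mRNA-high cells and 0 to 18 (median 2) in MT-mRNA-low cells, 3.92-fold. HES1 was above the MT-mRNA-low median share in 18 of 19 MT-mRNA-high cells and ID2 in 17, with overlapping ranges for both. Their relatives did not all move the same way. ID3 stood at 2.29, ID1 at 1.48 and HES6 at 1.31, while ID4 stood at 0.985 and HES4 at 0.825. Of these relatives, all but ID3 lay below the floor of 3 UMIs per cell. A single MT-mRNA-low cell held 25 of that group's 45 HES1 UMIs, and the HES1 ratio was 2.54 in pooled shares and up to 7.27 with 1 cell left out. The MT-mRNA-high cell with the most ID2 held 69 of the group's 331 ID2 UMIs.

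RNA processing and ribosome assembly were also represented. SNHG1, a host gene of small nucleolar RNAs, had 0 to 16 UMIs (median 4) in MT-mRNA-high cells and 0 to 6 (median 1) in MT-mRNA-low cells, 3.95-fold in mean share. The snoRNA host list as a whole took 0.472% ± 0.0620 in MT-mRNA-high cells and 0.390% ± 0.0938 in MT-mRNA-low cells, with 3 of 9 measured members past 1.5-fold higher (SNHG1, SNHG15 at 2.51-fold and ZFAS1 at 1.54-fold) and 0 lower, beside 10.0% and 13.6% over all genes. Its median log2 ratio was 0.13, and 0.00 after the fit on GC content and length. SNHG5, its most abundant member, stood at 0.114% in MT-mRNA-high cells and 0.113% in MT-mRNA-low cells. SNRPB2, a protein of the U2 spliceosomal particle, had 3 to 18 UMIs (median 9) in MT-mRNA-high cells and 0 to 17 (median 3) in MT-mRNA-low cells, 2.65-fold, and was above the MT-mRNA-low median share in 19 of 19 MT-mRNA-high cells. The remaining higher genes were SELK (2.70-fold), a selenoprotein of the endoplasmic reticulum, UBE2T (2.65-fold), the ubiquitin-conjugating enzyme of the Fanconi anaemia pathway, RSL24D1 (2.59-fold), a factor of large ribosomal subunit assembly, and LAMTOR5 (2.54-fold), a subunit of the lysosomal Ragulator complex.

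Among the lower genes, 1 belongs to the mitochondrion itself. CHCHD3, a subunit of the complex that shapes the cristae of the inner membrane, had 0 to 10 UMIs (median 1) in MT-mRNA-high cells and 3 to 13 (median 7) in MT-mRNA-low cells, a ratio of 0.315. CD99, a cell surface glycoprotein, had 0 to 4 UMIs (median 1) in MT-mRNA-high cells and 0 to 15 (median 4) in MT-mRNA-low cells, a ratio of 0.251. Both genes were below the MT-mRNA-low median share in 18 of 19 MT-mRNA-high cells, and their ranges overlapped.

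HNRNPA1, an abundant splicing regulator with many processed pseudogenes, had 0 to 32 UMIs (median 8) in MT-mRNA-high cells and 11 to 73 (median 25) in MT-mRNA-low cells, a ratio of 0.385. Its summed UMIs were 207 in MT-mRNA-high cells (interval 180 to 237) and 558 in MT-mRNA-low cells (513 to 606), and the 1 MT-mRNA-high cell above the MT-mRNA-low median share was an exception to the other 18. Its near relative HNRNPA2B1 had 0.0566% in MT-mRNA-high cells and 0.0562% in MT-mRNA-low cells. Of 21 measured splicing regulators only HNRNPA1 was past 1.5-fold in either direction, beside 10.0% higher and 13.6% lower over all genes. EIF5B, which joins the ribosomal subunits, had 0 to 7 UMIs (median 1) in MT-mRNA-high cells and 0 to 12 (median 5) in MT-mRNA-low cells, a ratio of 0.389.

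The metabolic enzymes TALDO1 (ratio 0.368), transaldolase of the pentose phosphate pathway, and AHCY (0.368), which clears S-adenosylhomocysteine, were also among the 12. So were SSRP1 (0.332), a subunit of the histone chaperone FACT, CCDC124 (0.351), a ribosome-associated protein, FKBP2 (0.379), a peptidyl-prolyl isomerase, TPM3 (0.386), a tropomyosin, and PEBP1 (0.388), an inhibitor of RAF kinase. For AHCY and TPM3 all 19 MT-mRNA-high cells were below the MT-mRNA-low median share, and for the others 16 or 18 of 19 were. Each of the genes named here had overlapping UMI ranges.

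**Figure D5:**
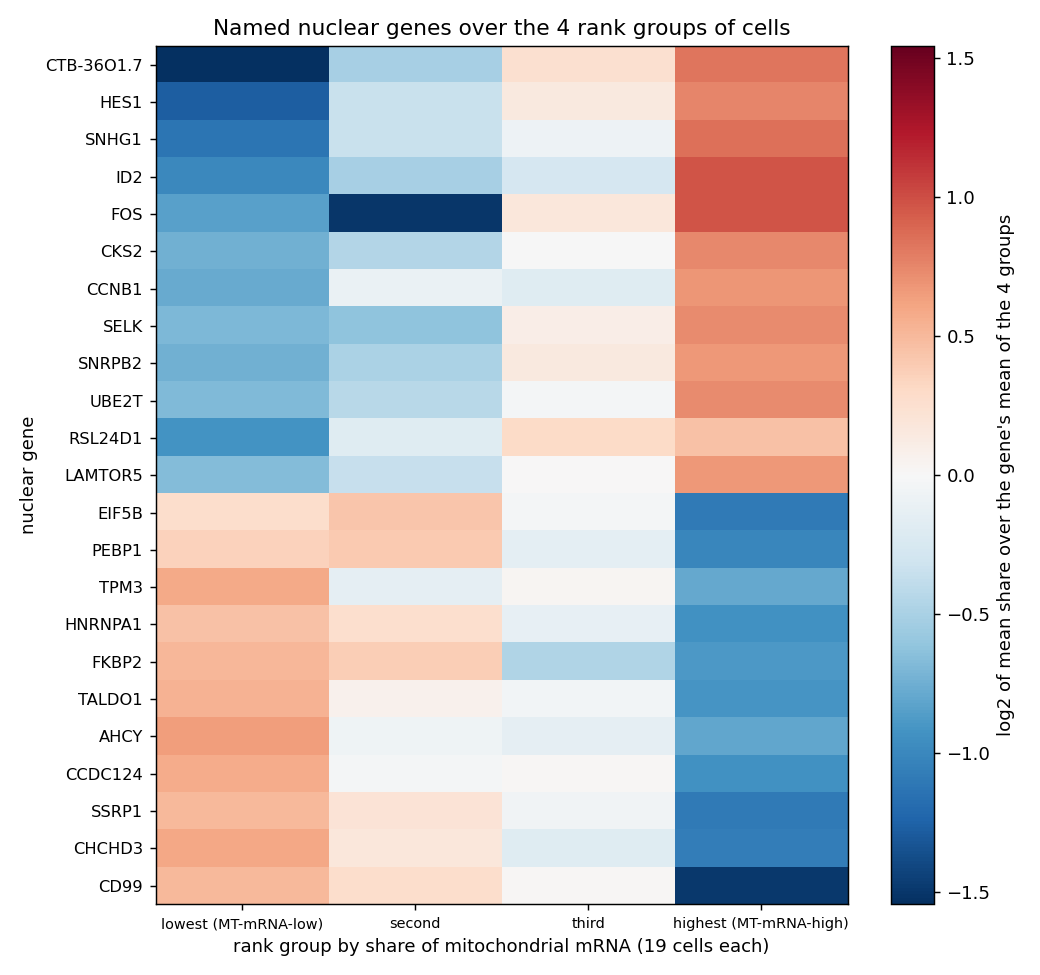
Mean share of nuclear UMIs of the named nuclear genes in the 4 rank groups of cells, ordered from lowest to highest share of mitochondrial mRNA (19 cells each), as log2 of the group's mean over the gene's mean of the 4 groups; red is above and blue below. The end groups differ most for CTB-36O1.7, at 5.17-fold in MT-mRNA-high over MT-mRNA-low cells. Whether this clone-named row holds mitochondrial reads was not tested.

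Base composition moved with the comparison. For the 1004 measured genes with a matching transcript (93.3%), the median log2 ratio over 5 classes of transcript GC content of 200 or 201 genes each, from lowest to highest, was 0.23, 0.09, -0.02, -0.05 and -0.26. The share of genes past 1.5-fold higher was 19.9% in the lowest class and 4.48% in the highest, and that past 1.5-fold lower was 8.96% in the lowest and 22.9% in the highest. Across these genes, which are not independent, Spearman's rho of the log2 ratio was -0.307 with GC content and -0.121 with transcript length. Glycolysis members had a median GC content of 54.7%, G2 and M phase members 46.3% and all 1004 genes 48.8%. After a straight-line fit on GC content and length was subtracted, the median log2 ratio was -0.44 for glycolysis and 0.43 for G2 and M phase, against -0.01 for all genes. The subtraction was added after seeing the data, and 86 genes were then past 1.5-fold higher and 120 lower.

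As a sign of RNA quality, MALAT1, an RNA kept in the nucleus, had 0 to 115 UMIs (median 17) in MT-mRNA-high cells and 4 to 115 (median 38) in MT-mRNA-low cells, a ratio of 0.483 in mean share. NEAT1, a sparser nuclear RNA, went the other way, with 31 UMIs in MT-mRNA-high cells and 23 in MT-mRNA-low cells (1.70-fold). Without MALAT1, the nuclear-retained list gave 41 UMIs in MT-mRNA-high cells and 31 in MT-mRNA-low cells, so its lower share rests on MALAT1. With cells ranked by mitochondrial ribosomal RNA instead, the nuclear-retained list that MALAT1 leads was higher at the top of the ranking (ratio 1.31). Its part in the other differences was not tested. Of 8 blood markers 3 were in the table, with CD74 at 0, and summed to 5 UMIs in MT-mRNA-high cells (0 to 0.0104% of a cell's nuclear UMIs) and 1 in MT-mRNA-low cells (0 to 0.00564%). Of 7 fibroblast and muscle markers 4 were in the table, with ACTA2 at 0, and summed to 7 UMIs in MT-mRNA-high cells (0 to 0.0132%) and 1 in MT-mRNA-low cells (0 to 0.00697%). The liver markers were at 0 in both groups. The 6 epithelial and neuronal genes known in HEK293 took 0.0148% to 0.122% in MT-mRNA-high cells and 0.0296% to 0.144% in MT-mRNA-low cells. The list ratio was 0.648, 15 of 19 MT-mRNA-high cells were below the MT-mRNA-low median, and 5 of the 6 genes had a ratio below 1. VIM, the intermediate filament vimentin, stood at 0.630, and the sparser neurofilament genes NEFL at 0.201 and NEFM at 0.515. The keratin genes KRT18 and KRT8 stood at 0.226 and 0.330, from 11 UMIs in MT-mRNA-high cells and 52 in MT-mRNA-low cells for KRT18. UCHL1, a neuronal ubiquitin hydrolase, had a ratio of 1.37.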

How the data were processed

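Single HEK293 cells (76, labelled as 1 line) were profiled by 5′ selective, oligo-dT-primed RNA-seq, per the labels' protocols. The authors deposited unnormalized UMI counts, as whole numbers. Named in the submitters' processing notes are STAR 2.4.0a, cutadapt 1.2.1 and hg19 (GRCh37). Not given in the sources used here are the UMI counting tool, the annotation, the strand setting, the treatment of reads that fit several genes and any cell filter. A row called GENE (0.197% of the sum of values) was left out, and 80 spike-in rows were kept apart from 17513 gene rows. Chambers holding more than 1 cell were not screened for.

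Shares, ratios and exact Poisson 95% intervals were computed with Python 3.11.15, pandas 2.3.3 and SciPy 1.17.1, and the calculation was checked on simulated counts. These were Poisson counts from 1 common profile with known changes set in. They held no spread between cells beyond counting error, so the check does not bear on the counts of genes past 1.5-fold. Cells gave 7305 to 43392 gene UMIs, so genes with few UMIs are governed by counting error. Nuclear genes needed a mean of 3 UMIs per cell over all cells. Past 1.5-fold in either direction is a description of size with no test. The rule for named genes took the 12 highest and 12 lowest ratios whose median share moved the same way, without nuclear copies of mitochondrial genes, for each list the 2 to 4 members of highest mean UMIs and any member past 1.5-fold, with the longer lists summarised; 1 gene this rule takes is not reported here. Other genes given with values (TFAM, POLRMT and PMAIP1 among them) were chosen after their values were seen. Members and the 36 gene lists were chosen with earlier results of these data known. Transcript length, GC content and mitochondrial coordinates came from GENCODE (GRCh38) and promoters from RefSeq (GRCh38.p14); neither is the authors' build, so symbols alone link them to the counts. Genes with near-identical copies (ribosomal proteins, EEF1A1, GAPDH, actins, tubulins, HNRNPA1) are uncertain. Alternatives changed the weight of cells, group size, scale, depth, floor, fold and ranking.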

Additional observations from a re-analysis of the deposited data

How the results depend on the processing

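Cells here are 1 sample, so no alternative carries a test, and depth limits single genes with medians of a few UMIs. No paired analysis was possible because the labels name 1 group with no replicates. The counts of genes past 1.5-fold (108 higher, 146 lower) were 181 and 183 with 10 cells at each end, 56 and 67 with 38 cells at each end, and 64 and 64 with cells ranked by mitochondrial ribosomal RNA, a ranking that shares 7 MT-mRNA-high and 11 MT-mRNA-low cells with the one used. Ranking by mitochondrial mRNA over spike-in UMIs gave 130 higher and 93 lower, which turns the balance. A floor of 1 UMI per cell gave 409 and 533 of 2784 genes, a floor of 10 gave 16 and 22 of 296, and a fold of 1.3 gave 207 and 249. Leaving out each of the 38 cells in turn gave 97 to 117 higher and 137 to 156 lower. The glycolysis ratio (0.708) was 0.665 with 10 and 0.794 with 38 cells at each end, 0.791 with the ribosomal RNA ranking, 0.753 with the spike-in ranking and 0.752 ranked separately among deep and shallow cells. The G2 and M phase ratio (1.43) was 1.56 with 10 and 1.32 with 38 cells at each end, 1.02 with the ribosomal RNA ranking, 1.18 without the 19 cells highest in these genes, and 1.32 to 1.52 over cells left out in turn. The immediate early ratio (1.78) was 1.41 with pooled shares, 1.55 with 38 cells at each end, 1.45 on the scale of spike-in UMIs, 1.29 with the ribosomal RNA ranking and 2.29 with the spike-in ranking. The nuclear-retained list reversed to 1.31 with the ribosomal RNA ranking. The causes were not tested. Each of the 24 named genes moved by over 1.5 times under at least 1 alternative. None crossed a ratio of 1, but some came close to it with the ribosomal RNA ranking: PEBP1 (0.993), FKBP2 (0.966), CCDC124 (0.927), RSL24D1 (1.05), SELK (1.12) and CCNB1 (1.19). The fit on length and GC content covered 10 of the 12 higher genes. The ratios of 19 lists lay on both sides of 1 among the alternatives.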

Other observations

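Counts in the translation and folding machinery stand here beside 10.0% of all genes past 1.5-fold higher and 13.6% lower. Cytosolic ribosomal protein genes took 32.3% ± 3.02 of nuclear UMIs in MT-mRNA-high cells and 31.7% ± 3.50 in MT-mRNA-low cells, with 0 of 82 measured members past 1.5-fold higher and 4 lower: RPL3 (ratio 0.549), RPL8 (0.591), RPL13 (0.618) and RPS9 (0.630). Translation factors took 2.05% ± 0.238 in MT-mRNA-high cells and 2.24% ± 0.204 in MT-mRNA-low cells. Of their 27 measured members 3 were past 1.5-fold higher and 6 lower, among them EEF2 (0.438), which moves the ribosome along the mRNA, and EEF1D (0.502), an exchange factor. The TRiC chaperonin, which folds actin and tubulin, had 0 of 8 members past 1.5-fold higher and 3 lower: CCT3 (0.564), CCT7 (0.606) and CCT6A (0.620). ST13, a cochaperone of HSP70, had a ratio of 0.460.

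Beside the same background, the cytoskeleton list had 5 of 17 measured members past 1.5-fold higher, TUBA1C (1.95-fold), MYL12A (1.64-fold), STMN1 (1.62-fold), MYL6 (1.59-fold) and MYL12B (1.51-fold), and 2 lower, TPM3 (0.386) and VIM (0.630). In the proteasome PSMB2 was 1.83-fold higher and PSMD4 (0.490), PSMD11 (0.539), PSMC5 (0.602) and PSMD8 (0.662) were lower, of 20 measured members. PMAIP1, which encodes the BH3-only protein NOXA, lay below the floor of 3 UMIs per cell and was picked out after its values were seen. It had 0 to 20 UMIs (median 2) in MT-mRNA-high cells and 0 to 6 (median 0) in MT-mRNA-low cells, with sums of 81 in MT-mRNA-high cells and 21 in MT-mRNA-low cells. The 14 other genes of the apoptosis list gave 89 UMIs in MT-mRNA-high cells and 96 in MT-mRNA-low cells, a ratio of 1.04 in mean share.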
